A study of Homo sapiens with 12 samples.

Results

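The interaction of endothelin-1 and sacubitrilat is the difference between 2 endothelin-1 effects in human cardiomyocytes: the effect in cells that also received sacubitrilat (both compounds over sacubitrilat alone) minus the effect in cells that did not (endothelin-1 alone over vehicle). Its members are all 12 libraries of the series, 3 in each of 4 groups, assigned by sample title. The groups received 16 µM sacubitrilat with 10 nM endothelin-1, 16 µM sacubitrilat, 10 nM endothelin-1, or the matching vehicle, each for 48 h. Every library came from a separate culture of cardiomyocytes made from WTC-mEGFP-ACTN2-cl85, a clonal human induced pluripotent stem cell line that is heterozygous for a C-terminal mEGFP tag on ACTN2, the alpha-actinin of the Z-disc. All cultures, vehicle included, were driven to the cardiac fate with CHIR99021 and IWP-2 and enriched in lactate medium without glucose, so every group shares 1 donor line, 1 clone and the tag. What was measured was the number of reads from the 3′ end of each polyadenylated RNA.

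Endothelin-1 is a vasoconstrictor peptide that binds Gq-coupled receptors, raises calcium and protein kinase C activity, and enlarges cardiomyocytes while switching on natriuretic peptide genes. Sacubitrilat blocks neprilysin, a membrane peptidase that degrades natriuretic peptides and also endothelin. Natriuretic peptides act through guanylyl cyclase receptors and cyclic GMP, which oppose growth signalling in heart muscle. A factorial design asks, for each gene, whether both compounds together give what their separate effects would give when multiplied. A positive interaction on the log2 scale means that the endothelin-1 effect was higher with sacubitrilat than without it, and a negative one that it was lower. The value is the same when the roles of the compounds are exchanged, which matters because, for the 6 libraries given 1 compound, the title and the closing line of the description disagree on which compound it was. Groups follow the titles here; the interaction does not depend on that choice, whereas the names of the endothelin-1 and sacubitrilat groups do.

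Library totals followed the contrast. The 6 libraries given both compounds or vehicle held 80844 to 316932 counts, and the 6 given a single compound 1268308 to 1953122, so the 2 sides did not overlap and their summed counts differed 10.1-fold. Every library was therefore thinned at random to 80000 counts, and counts below are out of 80000 unless all counts are named. Thinning equalises counting noise and the chance of seeing a gene, but not whatever made the totals low. Even at 80000 counts, 12668 to 13416 genes had a count with both compounds and 11600 to 13843 with vehicle, against 11359 to 11477 with sacubitrilat alone and 11068 to 11282 with endothelin-1 alone. Of the 10 cardiomyocyte markers, all had counts in 11 of 12 libraries, and in vehicle replicate 2 PLN was at 0. They summed to 674 to 1115 counts with both compounds, 510 to 578 with sacubitrilat, 703 to 792 with endothelin-1 and 531 to 669 with vehicle. In bulk RNA, fewer cells of a type and less RNA per cell cannot be told apart.

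At matched depth, 950 of 1853 genes tested (51.3%) had an interaction at an adjusted p under 0.05 in edgeR's quasi-likelihood test. Of these, 501 were higher (27.0%) and 449 lower (24.2%), and the median over all genes tested was -0.08. Among the 501 higher genes, the median endothelin-1 effect was 1.60 on the log2 scale with sacubitrilat and -1.25 without it. Among the 449 lower genes, it was -1.29 with sacubitrilat and 0.90 without. The medians thus lay on opposite sides of 0 in the 2 backgrounds, as the plot of the 2 effects shows. Between cultures given both compounds and vehicle, the median difference was 0.32 over the higher genes and -0.48 over the lower ones, and 15 of 1853 genes (0.809%) were called between these 2 groups, 8 higher (0.432%) and 7 lower (0.378%). By comparison, endothelin-1 added to sacubitrilat called 801 genes (43.2%) and endothelin-1 added to vehicle called 447 (24.1%). Each of the latter 2 comparisons sets a group of low library totals against one of high totals, whereas both compounds and vehicle are of low total. The 3 counts of calls therefore cannot be read as sizes of compound effects alone. For 365 genes (19.7%), the 6 libraries given both compounds or vehicle did not overlap the 6 given a single compound.

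**Figure D1:**
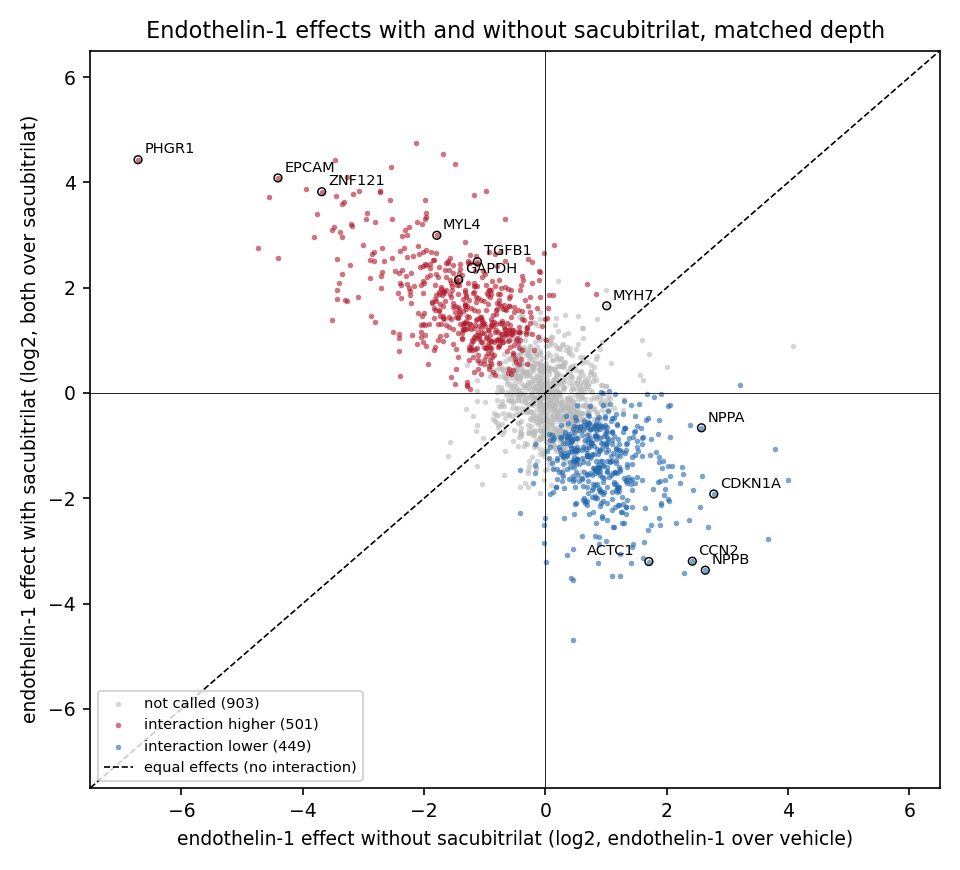
Each point is 1 of 1853 genes at matched depth, with the log2 effect of endothelin-1 in the presence of sacubitrilat on the vertical axis and in its absence on the horizontal axis, and the dashed line marking equal effects. The 501 genes called higher lie above the line, mostly at the upper left, the 449 called lower lie below it, mostly at the lower right, and MYH7 lies near the line with both effects positive.

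With all counts, 5163 of 11203 genes tested were called (46.1%), 2255 higher (20.1%) and 2908 lower (26.0%), and the median was -0.43. Of the 950 genes called at matched depth, 917 were called in the same direction with all counts and 0 in the opposite direction, which is 96.5% of the matched-depth calls and 17.8% of the all-count calls. Both fits use the same libraries, so this is not independent support. When the log2 of the library total entered the matched-depth model as a covariate, an alternative added after the data were seen, 26 genes were called (17 higher, 9 lower), and with all counts 25 (25 higher, 0 lower). Of the 74 called genes followed under each alternative, H19 alone kept its call under that covariate at matched depth, 38 lost it in the same direction (NPPB, for one, at -2.02, edgeR adjusted p = 0.745) and 35 changed sign, NPPA at 2.33 and MYL4 at -2.14 among them. Scaling by totals alone moved the median of all genes to -0.41 and the calls to 432 higher and 573 lower, so 43.0% of calls were higher, against 52.7% with TMM scaling.

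The called genes also ordered the libraries within a group. The contrast compares group means and not this order. The same libraries made the calls, however, so a library that is extreme in its group can favour this order, and it is not independent support. In the vehicle group, replicate 2 (80844 counts, the shallowest) lay above replicate 1 (316932, the deepest) in 397 of the 501 higher genes (79.2%) and below it in 360 of the 449 lower genes (80.2%). Over all 1853 genes, replicate 2 was above in 43.4% and below in 56.5%. In cultures given both compounds, replicate 1 (87281 counts) lay above replicate 2 (158791) in 365 of the higher genes (72.9%) and below it in 283 of the lower genes (63.0%), against 51.1% and 48.7% over all genes. Library total and the interaction cannot be told apart in this design, and the part of the total in each gene below was not tested.

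**Figure D2:**
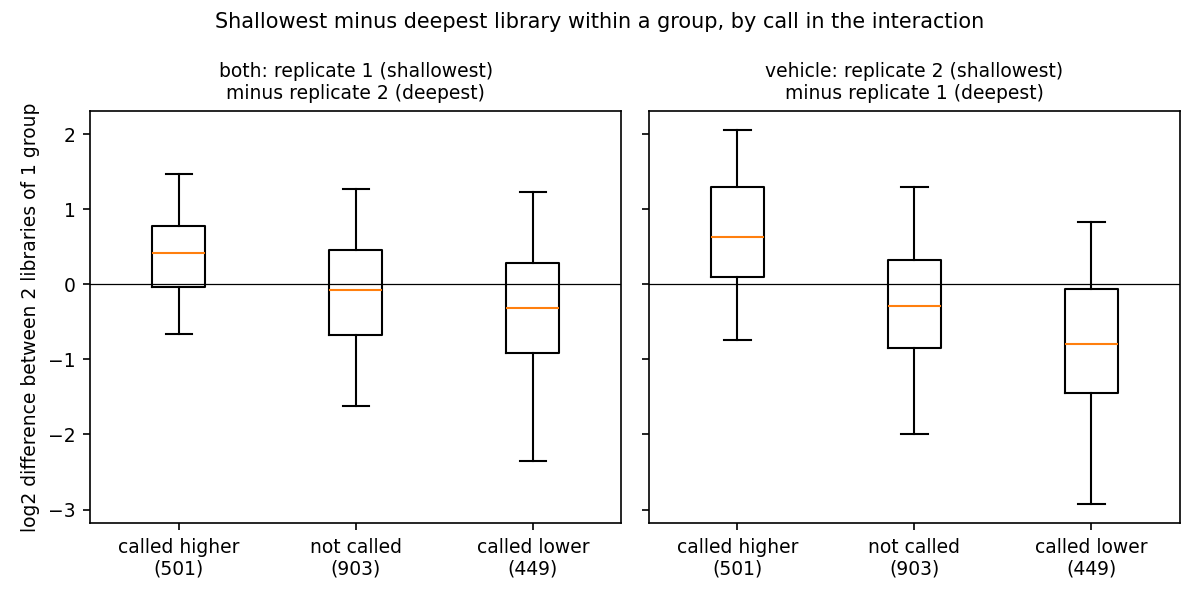
Boxes show, for genes by their call in the interaction, the log2 difference between the shallowest and the deepest of the 3 libraries given both compounds (left) and given vehicle (right), both at 80000 counts, with the median, the quartiles and whiskers at the 5th and 95th percentiles. Genes called higher had medians of 0.41 with both compounds and 0.63 with vehicle, and genes called lower -0.31 and -0.80.

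Natriuretic peptide genes were lower in the interaction. NPPB, which encodes brain natriuretic peptide (chr1:11857464-11858931, minus strand), had 3, 3 and 6 counts with both compounds, 44, 48 and 60 with sacubitrilat, 47, 44 and 36 with endothelin-1 and 8, 2 and 9 with vehicle. Each compound alone thus sat above vehicle in all 3 libraries, and the pair sat within the vehicle range. Its interaction was -6.00 ± 0.52 (SE; edgeR adjusted p = 7.37e-08): multiplied effects would have given 339 counts, and the mean was 4.00. NPPA, the atrial natriuretic peptide gene next to it (chr1:11845709-11848345), had 42, 91 and 67 counts with both, 117, 124 and 134 with sacubitrilat, 278, 334 and 278 with endothelin-1 and 76, 17 and 49 with vehicle, an interaction of -3.23 ± 0.45 (adjusted p = 7.03e-06). Its endothelin-1 effect was -0.66 ± 0.31 with sacubitrilat and 2.57 ± 0.32 without. Reads of NPPA and its antisense gene may be shared, since the strand setting of the counting is not given in the sources used here. GUCY1A1, a subunit of the soluble, nitric oxide-sensitive guanylyl cyclase, was lower too (-2.82 ± 0.59). These were the 3 tested members of 14 in the natriuretic and neprilysin list, and all 3 were called lower. With all counts 6 of 10 tested were lower and 0 higher, and GUCY1B1, PDE5A, PDE9A and NPR1 were not called. Over all genes tested, 24.2% were lower at matched depth and 26.0% with all counts. These shares, and 27.0% and 20.1% for higher genes, are the background of every list count below.

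The receptor side was thinly measured. EDNRA, the endothelin A receptor of heart and vascular muscle, had 3, 3 and 1 counts with both, 8, 7 and 10 with sacubitrilat, 10, 13 and 14 with endothelin-1 and 4, 0 and 3 with vehicle, and an interaction of -3.79 ± 0.86 (adjusted p = 0.000943). RGS5, which shortens Gq signals, was lower by -3.59 ± 0.57. In the endothelin and Gq list 2 of 3 tested members were lower and 0 higher, and with all counts 7 of 12 were lower and 1 higher. The shares lower over all genes tested were 24.2% and 26.0% in the same fits. Not tested at matched depth were EDN1 (the endothelin-1 precursor), EDNRB, MME (neprilysin itself) and NPR3 (the natriuretic clearance receptor). With all counts EDN1 averaged 5.92 ± 5.74 CPM with both, 17.6 ± 5.12 with sacubitrilat, 23.9 ± 2.70 with endothelin-1 and 2.10 ± 3.64 with vehicle (SD, n = 3 each), and its interaction was -4.37 ± 1.14 (edgeR adjusted p = 0.00196). The others had too few counts to test. Summed over the 3 libraries of a group, MME had 3 counts with both, 21 with sacubitrilat, 20 with endothelin-1 and 6 with vehicle. EDNRB had 1 with both, 10 with sacubitrilat, 5 with endothelin-1 and 0 with vehicle, and NPR3 had 0 with both, 25 with sacubitrilat, 32 with endothelin-1 and 2 with vehicle.

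MYH7, the slow beta-myosin heavy chain that marks hypertrophy in rodent hearts, did not follow the natriuretic genes. It had 316, 216 and 173 counts with both, 101, 98 and 72 with sacubitrilat, 282, 230 and 237 with endothelin-1 and 140, 89 and 122 with vehicle. Every library with endothelin-1 in its title stood above every library without it. The endothelin-1 effect was 1.66 ± 0.26 with sacubitrilat and 1.01 ± 0.26 without, and the interaction of 0.65 ± 0.36 did not pass (adjusted p = 0.145; 95% interval -0.11 to 1.40). Without vehicle replicate 2 the MYH7 interaction was 0.85 (adjusted p = 0.0331), without replicate 3 of both compounds it was 0.95 (adjusted p = 0.0337), and without the 2 libraries under 100000 counts 0.62 (adjusted p = 0.0187). The neighbouring alpha-myosin gene MYH6, with which MYH7 can share reads, had 76, 40 and 57 counts with both, 80, 85 and 66 with sacubitrilat, 86, 75 and 74 with endothelin-1 and 57, 53 and 63 with vehicle. Its interaction at matched depth was -0.49 ± 0.34 (adjusted p = 0.233), and with all counts -0.82 ± 0.30 (adjusted p = 0.0261).

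**Figure D3:**
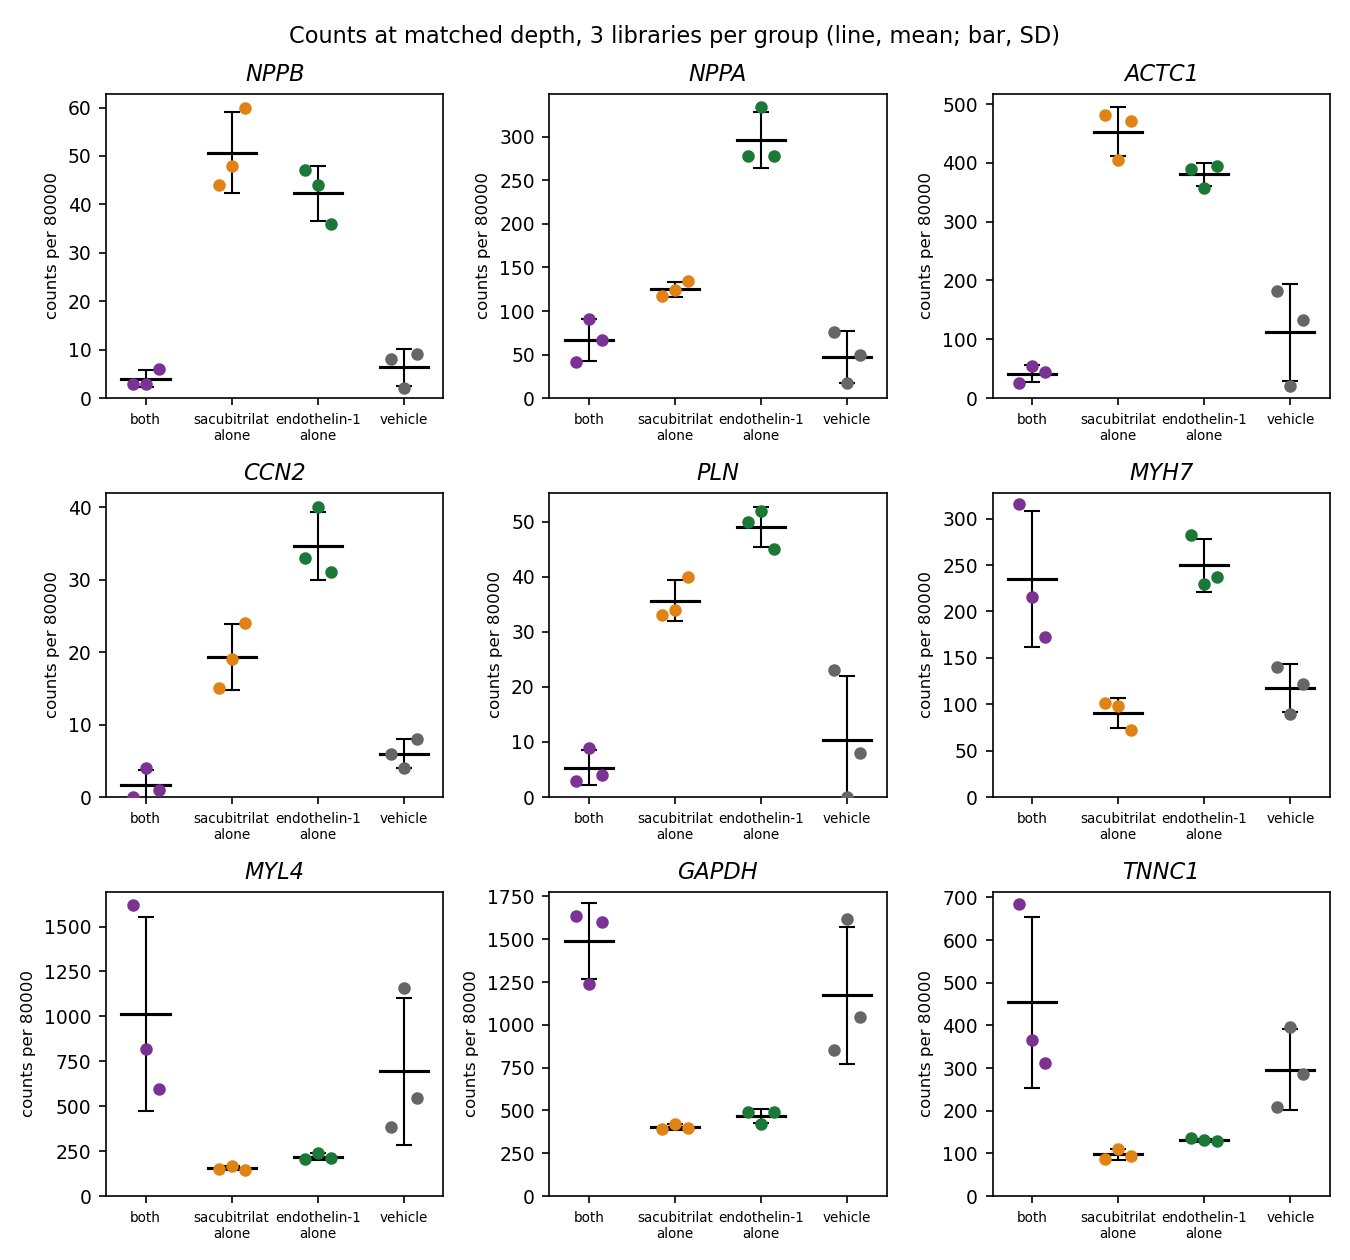
Counts out of 80000 in each library for 9 genes, by group, with a point per library, a line at the group mean and a bar of 1 SD (n = 3). NPPB, NPPA, ACTC1, CCN2 and PLN are highest in the single-compound groups, MYL4, GAPDH and TNNC1 are lowest there, and MYH7 is high in both groups that received endothelin-1.

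In the actins, 3 of 5 tested members were lower and 0 higher, with a median of -1.75. With all counts 5 of 6 were lower and 0 higher. The shares lower over all genes tested were 24.2% and 26.0%. ACTC1, the main actin of the heart sarcomere (chr15:34788095-34795726), had 26, 54 and 44 counts with both, 482, 405 and 471 with sacubitrilat, 389, 358 and 394 with endothelin-1 and 182, 20 and 133 with vehicle. The single-compound libraries did not overlap the others, but vehicle replicate 2, the shallowest library, held far less than its 2 partners. The ACTC1 interaction was -4.91 ± 0.59 (edgeR adjusted p = 1.46e-06). ACTA2, smooth muscle actin, had 11, 15 and 11 counts with both, 35, 32 and 42 with sacubitrilat, 77, 88 and 87 with endothelin-1 and 28, 7 and 27 with vehicle, an interaction of -3.23 ± 0.45. The skeletal actin ACTA1, a fetal gene in hypertrophy, missed the threshold (-1.75 ± 0.76, adjusted p = 0.0576), but 9 of 10 other random thinnings called it, at -3.33 to -2.10, as did all counts, at -2.31 ± 0.41 (adjusted p = 2.15e-05).

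Among 19 tested targets of serum response factor (SRF), its partner MRTF and the TEAD partner YAP, 10 were lower, 3 higher and 6 not called (median -1.20). With all counts 18 of 28 were lower and 3 higher. The shares lower over all genes tested were 24.2% and 26.0%. CCN2, a secreted matrix protein also called connective tissue growth factor and a classic YAP target (chr6:131948176-131951373), had 0, 4 and 1 counts with both, 15, 19 and 24 with sacubitrilat, 33, 40 and 31 with endothelin-1 and 6, 4 and 8 with vehicle. Its interaction was -5.62 ± 0.65 (adjusted p = 1.08e-06), and multiplied effects would have given 112 counts, against a mean of 1.67. ANKRD1, a stretch-responsive ankyrin repeat protein of the sarcomere and nucleus, was lower by -2.53 ± 0.42, the calponin CNN1 by -3.11 ± 0.56 and tropomyosin TPM1 by -1.76 ± 0.37. The 3 higher members were ACTN1 and FLNA, which crosslink actin, and MYL9, a regulatory light chain, so the list did not move as a block.

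Promoters of 3 genes called lower are shown because they carry the short elements that TEAD factors (GGAATG, also called the MCAT core) or SRF (the CArG box) are known to bind. CCN2 and ANKRD1 are in the list above, and ACTC1, from the actins, is not. Each window runs from 250 bases before to 50 bases after the RefSeq start, on GRCh38.p14, written 5′ to 3′ along the gene: CCN2 at chr6:131951323-131951622, ANKRD1 at chr10:90921038-90921337 and ACTC1 at chr15:34795500-34795799, all on the minus strand. Capitals mark the elements found when both strands were searched; none of them overlap.
CCN2: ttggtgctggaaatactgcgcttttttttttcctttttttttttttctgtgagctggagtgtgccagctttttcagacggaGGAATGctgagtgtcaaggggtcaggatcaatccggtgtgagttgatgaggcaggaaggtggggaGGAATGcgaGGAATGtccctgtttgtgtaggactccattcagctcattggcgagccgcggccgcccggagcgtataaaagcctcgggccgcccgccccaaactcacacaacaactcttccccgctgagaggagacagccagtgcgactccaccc
ANKRD1: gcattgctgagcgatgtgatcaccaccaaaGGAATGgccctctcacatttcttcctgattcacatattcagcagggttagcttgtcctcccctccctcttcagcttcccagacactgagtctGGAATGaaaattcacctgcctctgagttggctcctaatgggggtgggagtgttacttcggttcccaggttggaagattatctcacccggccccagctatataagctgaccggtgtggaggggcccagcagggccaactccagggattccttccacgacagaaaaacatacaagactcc
ACTC1: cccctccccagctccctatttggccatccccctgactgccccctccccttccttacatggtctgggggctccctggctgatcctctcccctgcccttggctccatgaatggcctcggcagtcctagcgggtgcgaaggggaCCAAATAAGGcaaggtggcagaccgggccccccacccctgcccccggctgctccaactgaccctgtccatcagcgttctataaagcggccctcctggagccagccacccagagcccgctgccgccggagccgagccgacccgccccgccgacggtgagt
The CCN2 window holds 3 copies of GGAATG, the ANKRD1 window 2, and the ACTC1 window 1 CArG box. Over all 27305 RefSeq promoters of this length, GGAATG occurs in 14.0% and a CArG box in 1.29%. Of the 360 lower genes with a promoter in the table (of 449), 11.1% hold GGAATG and 3.61% a CArG box, against 11.5% and 2.03% of the 1429 tested genes with a promoter. Among the 9 lower SRF, MRTF and YAP targets with a promoter, 2 hold GGAATG (CCN2 and ANKRD1) and 1 a CArG box (CNN2). Of the 5 members not called, 2 hold GGAATG (CALD1 and VCL) and 1 a CArG box (TPM4). Of the 2 higher members, 0 hold GGAATG and 1 a CArG box (FLNA). The elements thus do not set the lower members apart. A match is a string in a window, not a bound site.

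Sarcomere genes were called in both directions, as were all 1853 genes tested (27.0% higher and 24.2% lower). In the Z-disc, M-band and desmin list, 10 of 19 tested members were lower and 2 higher, with a median of -1.68. Lower members included NEXN, an actin-binding Z-disc protein (-3.63 ± 0.60), NEBL, the cardiac nebulette (-3.50 ± 0.64), and the desmin chaperone CRYAB (-2.44 ± 0.73). Some thin-filament regulators and light chains were higher. TNNC1, troponin C, had 684, 366 and 313 counts with both, 87, 111 and 95 with sacubitrilat, 135, 131 and 128 with endothelin-1 and 209, 396 and 285 with vehicle. All libraries given both or vehicle exceeded all given 1 compound, and the interaction was 3.78 ± 0.44 (adjusted p = 1.14e-06). Troponins and tropomyosins gave 3 higher (TNNC1, TNNT2 at 1.83 ± 0.40 and the fetal TNNI1 at 1.67 ± 0.31) and 2 lower (TPM1 and TPM2) of 8 tested, while adult TNNI3 was at -0.08 ± 0.66 (adjusted p = 0.927), with 4 to 13 counts per library.

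The myosin list was mixed as well, with 4 higher and 3 lower of 12 tested (median 0.36). That is 58.3% called, near the 51.3% of all genes tested. MYL4, the atrial and fetal essential light chain, had 1621, 820 and 594 counts with both, 153, 167 and 146 with sacubitrilat, 204, 240 and 211 with endothelin-1 and 383, 1159 and 543 with vehicle. Within the both and vehicle groups, the highest value is that of the shallowest library, replicate 1 of both compounds and replicate 2 of vehicle. Its interaction was 4.78 ± 0.56 (adjusted p = 1.23e-06). MYL9 was at 2.86 ± 0.39 and the ventricular MYL3 at 2.84 ± 0.56. MYL7, the atrial regulatory light chain, went the other way at -1.17 ± 0.41 (adjusted p = 0.0220), and lost the call without replicate 1, 2 or 3 of endothelin-1, replicate 2 of sacubitrilat, or replicate 2 or 3 of both compounds (adjusted p from 0.0513 to 0.0887). MYL2 was not tested at matched depth. With all counts it averaged 10.5 ± 2.73 CPM with both, 19.2 ± 1.63 with sacubitrilat, 86.4 ± 5.25 with endothelin-1 and 9.32 ± 11.4 with vehicle (SD, n = 3 each), an interaction of -3.41 ± 0.76 (edgeR adjusted p = 0.000410).

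Among sarcoplasmic reticulum genes 4 of 7 tested were lower and 1, the calcium buffer HRC, higher (median -1.77). Of all genes tested, 24.2% were lower at matched depth and 26.0% with all counts. PLN, phospholamban, the brake on the calcium pump, had 3, 9 and 4 counts with both, 33, 34 and 40 with sacubitrilat, 50, 52 and 45 with endothelin-1 and 23, 0 and 8 with vehicle, an interaction of -4.62 ± 0.72 (adjusted p = 2.68e-05). The pump itself, ATP2A2, was at 1.16 ± 0.57 and did not pass (adjusted p = 0.0908), though 6 of 10 other thinnings called it and so did all counts, at 0.86 ± 0.30 (adjusted p = 0.0202). SLC8A1, the sodium-calcium exchanger, was lower by -4.71 ± 0.88. In the calcineurin and CaMKII list, which carries the calcium signal to the nucleus, 3 of 5 tested were lower (the calmodulin genes CALM2 and CALM3, and CAMK2D) and 0 higher. With all counts 10 of 19 in that list were lower and 1 higher. RCAN1, a calcineurin target, was tested with all counts alone, at -2.47 ± 0.53 (edgeR adjusted p = 0.000249). Of 4 tested cardiac transcription factors, 3 were lower: GATA4 (-2.91 ± 0.65), GATA6 (-4.27 ± 0.97) and MYOCD, the SRF coactivator myocardin (-2.37 ± 0.59). With all counts 6 of 12 transcription factors were lower and 0 higher.

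Collagens and matrix gave 12 lower and 1 higher of 21 tested (median -1.61), with 8 not called, and 23 lower and 1 higher of 29 with all counts. The shares lower over all genes tested were 24.2% and 26.0%. COL1A1, the main fibrillar collagen chain, had 38, 150 and 174 counts with both, 275, 289 and 293 with sacubitrilat, 236, 237 and 251 with endothelin-1 and 151, 62 and 132 with vehicle, an interaction of -2.00 ± 0.48 (adjusted p = 0.00159). COL3A1 was at -1.61 ± 0.43 and the proteoglycan VCAN at -3.73 ± 0.50. The higher member was COL6A2, at 3.28 ± 0.42, whose partner chain COL6A1 was lower, at -4.00 ± 0.67. COL6A2 had 26, 63 and 77 counts with both, 26, 24 and 30 with sacubitrilat, 16, 15 and 15 with endothelin-1 and 57, 57 and 58 with vehicle. In the TGF-beta list 6 of 10 tested were lower and 2 higher (median -1.99), and with all counts 10 and 2 of 17. At matched depth, the higher ones being the ligand TGFB1 and LTBP4, a latent TGF-beta binding protein (3.13 ± 0.34). TGFB1 had 16, 23 and 43 counts with both, 5, 11 and 1 with sacubitrilat, 7, 3 and 7 with endothelin-1 and 9, 17 and 9 with vehicle, an interaction of 3.61 ± 0.75 (adjusted p = 0.000460). POSTN, a fibroblast matrix gene, and CCN1, a relative of CCN2, were tested with all counts alone, at -4.74 ± 0.81 (edgeR adjusted p = 9.50e-06) and -2.74 ± 0.62 (0.000487). Beside these, the summed counts of the 13 fibroblast markers ran from 177 to 372 with both, 554 to 601 with sacubitrilat, 554 to 639 with endothelin-1 and 161 to 408 with vehicle. That list holds COL1A1, COL1A2, COL3A1 and POSTN, so its sums are not separate from the matrix counts above. Of its 4 members tested at matched depth, the 3 collagens were lower and FBLN1 was not called. With all counts 7 of 11 were lower and 1, THY1, higher. Summed counts of the 10 smooth muscle markers, ACTA2 and CNN1 among them, ran from 141 to 251 with both, 288 to 354 with sacubitrilat, 402 to 467 with endothelin-1 and 95 to 248 with vehicle. All markers of both lists had a count in at least 1 library, and their part in the lower calls was not tested.

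Growth arrest and stress genes stand beside all 1853 genes tested, of which 24.2% were lower and 51.3% called in either direction. CDKN1A, the cell cycle inhibitor p21, had 4, 8 and 9 counts with both, 32, 28 and 36 with sacubitrilat, 52, 51 and 66 with endothelin-1 and 8, 3 and 12 with vehicle. Both single-compound groups stood above both others, at an interaction of -4.70 ± 0.49 (edgeR adjusted p = 4.11e-07). It was among 3 of 4 tested p53 targets called lower, with 0 higher, and with all counts 12 of 20 were lower and 1 higher. Endoplasmic reticulum chaperones gave 5 lower and 0 higher of 10 tested (median -1.02; CALR, calreticulin, at -1.77 ± 0.31), and heat shock proteins 4 lower and 2 higher of 8 (HSPB1 at -2.20 ± 0.37). RNA-binding and splicing genes gave 9 lower and 0 higher of 25 tested (median -0.57), and cytoskeleton and focal adhesion genes 9 lower and 3 higher of 21 (TMSB4X, which sequesters actin monomers, at -2.63 ± 0.34). MALAT1, an abundant nuclear noncoding RNA, had 69, 116 and 83 counts with both, 667, 552 and 590 with sacubitrilat, 618, 637 and 636 with endothelin-1 and 270, 68 and 201 with vehicle, an interaction of -4.25 ± 0.46. Its list of nuclear-retained noncoding RNA was split, with 5 lower and 4 higher of 13; H19, an imprinted fetal RNA, was higher at 2.69 ± 0.54 (adjusted p = 0.000341), and shares its locus with another annotated gene, so its reads are uncertain.

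The 12 largest lower interactions by the naming rule ran from -6.44 ± 1.47 to -4.71 ± 1.08. Beside NPPB, CCN2, ACTC1 and SLC8A1 they were NYNRIN, CAP2 (an actin-recycling protein of muscle, -5.69 ± 0.66), RRAD (a small GTPase that restrains calcium channels, -5.66 ± 0.83), OSTC (an oligosaccharyltransferase subunit), HTRA1 (a secreted protease that cleaves matrix and TGF-beta family proteins), ARL6IP5, NREP and DKK3. CAP2 had 1, 2 and 1 counts with both, 20, 18 and 17 with sacubitrilat, 12, 24 and 17 with endothelin-1 and 4, 2 and 4 with vehicle. RRAD had 3, 2 and 3 with both, 12, 9 and 10 with sacubitrilat, 19, 30 and 25 with endothelin-1 and 0, 0 and 4 with vehicle. NYNRIN, OSTC, HTRA1, SLC8A1 and DKK3 held 0 to 22 counts per library and their groups overlapped; OSTC lost the call in 2 of 10 other random thinnings and HTRA1 in 1.

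Metabolic genes were divided. GAPDH, a glycolytic enzyme used as a loading control (chr12:6533927-6538374), had 1637, 1237 and 1600 counts with both, 393, 423 and 398 with sacubitrilat, 493, 421 and 493 with endothelin-1 and 852, 1619 and 1047 with vehicle. The lowest library given both or vehicle was above the highest given 1 compound, at an interaction of 3.58 ± 0.41 (edgeR adjusted p = 1.02e-06). The rest of glycolysis did not follow it: of 16 tested members 3 were higher (GAPDH, ENO3 and SLC2A1) and 3 lower (PFKP at -2.61 ± 0.53, HK1 and PGAM1), and the median was 0.20. With all counts glycolysis gave 3 higher and 7 lower of 22 (median -0.26). Fatty acid oxidation gave 2 higher and 0 lower of 5 tested at matched depth, and 5 and 3 of 19 with all counts. The TCA cycle gave 2 higher and 1 lower of 9, and with all counts 3 higher and 7 lower of 16 (median -0.72).

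Nuclear genes of respiratory complex I, which takes electrons from NADH, gave 10 higher and 0 lower of 20 tested at matched depth, with a median of 1.33. With all counts, which tested all 38 members, 12 were higher and 10 lower and the median was -0.19, so the direction at matched depth holds for the members that passed its filter and not for the list. NDUFV1, its NADH-binding subunit, had 172, 64 and 66 counts with both, 13, 14 and 10 with sacubitrilat, 18, 16 and 18 with endothelin-1 and 36, 112 and 44 with vehicle, an interaction of 5.30 ± 0.65 (adjusted p = 1.94e-06). NDUFS8 was at 2.98 ± 0.40 and NDUFS5 at 2.86 ± 0.34. At 130000 counts, without the 2 shallowest libraries, complex I gave 14 higher and 5 lower of 33 tested. Complexes II and III gave 2 higher and 2 lower of 9, complex IV 1 and 1 of 10, and ATP synthase 1 higher and 5 lower of 16. ATP synthase gave 1 higher and 1 lower of 18 at 130000 counts without those 2 libraries, and 1 higher and 11 lower of 18 with all counts. Mitochondrial ribosomal proteins gave 8 higher and 0 lower of 10 tested (median 2.84; MRPL28 at 3.87 ± 0.71). With all counts, which tested 76 of the 77 members, 15 were higher and 15 lower and the median was -0.28.

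RNAs made inside mitochondria were split. Of the 13 mitochondrially encoded messengers 5 were higher and 4 lower (median -0.45), and both mitochondrial ribosomal RNAs were lower. MT-CO3, a subunit of complex IV, had 353, 422 and 415 counts with both, 1185, 1212 and 1390 with sacubitrilat, 1427, 1612 and 1463 with endothelin-1 and 656, 824 and 609 with vehicle, an interaction of -2.42 ± 0.36 (adjusted p = 1.48e-05). MT-ATP8, which overlaps MT-ATP6 and can share its reads, had 2011, 1319 and 552 counts with both, 242, 324 and 224 with sacubitrilat, 284, 235 and 338 with endothelin-1 and 927, 1690 and 1257 with vehicle, at 4.86 ± 0.55. MT-RNR2 was at -1.52 ± 0.52 (adjusted p = 0.0184), and lost the call without any 1 of the 3 endothelin-1 libraries, sacubitrilat replicate 2 or replicate 3 of both compounds (adjusted p from 0.0524 to 0.0641). Mitochondrial ribosomal RNA took 1.58% to 3.51% of counts with both, 4.23% to 4.77% with sacubitrilat, 5.98% to 6.23% with endothelin-1 and 1.49% to 4.71% with vehicle.

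Cytosolic ribosomal proteins had the most tested members of any list and no common direction: of 80 tested, 16 were higher and 18 lower, and the median was -0.05 (15 higher and 30 lower of 84 with all counts, median -0.33). RPL41 and RPL39, which encode very short proteins, were among the higher ones. RPL41 had 635, 439 and 369 counts with both, 118, 108 and 108 with sacubitrilat, 93, 76 and 92 with endothelin-1 and 182, 380 and 257 with vehicle, at 4.14 ± 0.42 (adjusted p = 2.57e-07), and RPL39 was at 3.76 ± 0.37. RPL7L1, a ribosome biogenesis factor, had 183, 123 and 120 counts with both, 16, 23 and 13 with sacubitrilat, 17, 15 and 20 with endothelin-1 and 53, 220 and 102 with vehicle, an interaction of 6.26 ± 0.59 (adjusted p = 1.64e-07). Ribosomal protein genes have many processed pseudogenes, so their reads are uncertain. Under scaling by totals alone the list gave 13 higher and 24 lower. Translation factors gave 5 higher and 6 lower of 33 tested and proteasome subunits 1 higher and 5 lower of 17. Proteasome subunits gave 4 higher and 4 lower of 28 at 130000 counts without the 2 shallowest libraries, and 3 higher and 13 lower of 43 with all counts. Lysosomal genes gave 3 higher and 4 lower of 8 (CTSD, the protease cathepsin D, at 3.27 ± 0.48), and MHC class I genes 2 higher and 0 lower of 3.

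**Figure D4:**
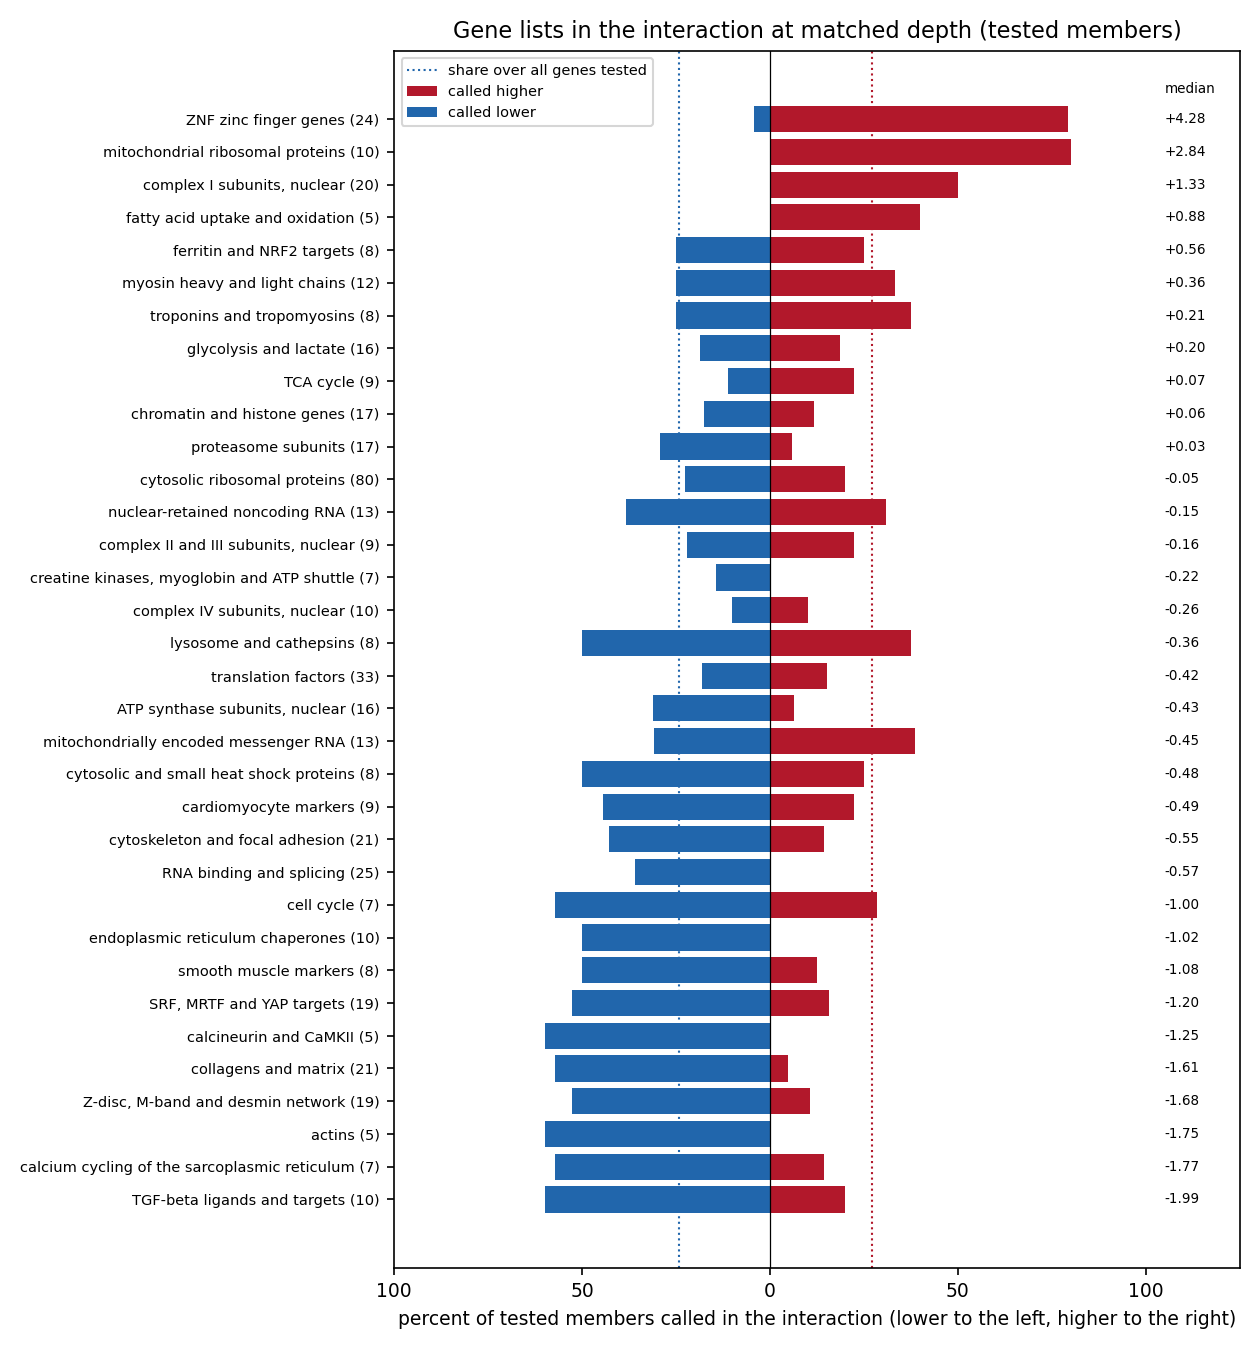
For each list with at least 5 tested members at matched depth (number in brackets), bars give the percent of tested members called higher (right) and lower (left), dotted lines the shares over all 1853 genes (27.0% and 24.2%), and figures at the right the median log2 interaction. Among tested members, zinc finger genes, mitochondrial ribosomal proteins and complex I stand at the higher end, where their medians with all counts were 0.67, -0.28 and -0.19, and TGF-beta, calcium cycling, actin, Z-disc and matrix genes at the lower end.

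ZNF genes, many of them DNA-binding repressors of the KRAB family, gave 19 higher and 1 lower of 24 tested, from a list of 510, with a median of 4.28. With all counts 228 were tested, 70 were higher and 41 lower, and the median was 0.67. Among the 24, ZNF69 had 4 counts in all over the 6 libraries given 1 compound, and a gene that passes the filter only through libraries given both or vehicle has to differ in this direction. ZNF121 (chr19:9560353-9584533) had 112, 78 and 72 counts with both, 8, 8 and 6 with sacubitrilat, 7, 2 and 8 with endothelin-1 and 31, 113 and 63 with vehicle, an interaction of 7.51 ± 0.65 (adjusted p = 7.37e-08). ZNF611 was at 6.45 ± 0.58 and ZNF69 at 8.28 ± 1.24. With all counts the largest interaction in the ZNF list was 6.70. By biotype, 55 of 83 tested long noncoding RNAs were higher (66.3%) and 8 lower (9.64%), with a median of 2.89, and 12 of 27 processed pseudogenes were higher (44.4%) and 2 lower (7.41%). Protein-coding genes gave 425 higher and 434 lower of 1723. As in the ZNF list, a noncoding gene or pseudogene that passes the filter only through libraries given both or vehicle has to be higher. Biotypes were counted at matched depth only. Long noncoding RNA took 9.22% to 10.8% of counts with both and 7.65% to 9.99% with vehicle, against 5.41% to 5.60% with sacubitrilat alone and 5.20% to 5.45% with endothelin-1 alone.

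Several of the 12 largest higher interactions are genes that heart muscle is not known for. PHGR1, a small protein of intestinal epithelium, had 17, 14 and 12 counts with both, 0, 2 and 0 with sacubitrilat, 0, 0 and 0 with endothelin-1 and 8, 23 and 6 with vehicle. Its fitted interaction of 11.1 ± 1.45 depends on the prior count. With the 3 endothelin-1 libraries set together at a floor of 3 counts, the interaction was 8.05 and endothelin-1 alone was at least 12.3-fold lower than vehicle. EPCAM, an epithelial adhesion molecule (chr2:47345158-47387601), had 8, 14 and 12 counts with both, 1, 1 and 0 with sacubitrilat, 0, 1 and 0 with endothelin-1 and 5, 16 and 6 with vehicle (8.49 ± 1.24). PIGR, the epithelial receptor that carries IgA, was at 7.82 ± 1.13, and IGKC, the constant region of the immunoglobulin kappa light chain, at 7.90 ± 1.04. IGKC had 14, 12 and 17 counts with both, 0, 2 and 0 with sacubitrilat, 2, 2 and 0 with endothelin-1 and 6, 21 and 18 with vehicle. The others were PLCXD1, XACT (a long noncoding RNA of the X chromosome), PDE11A (a cyclic nucleotide phosphodiesterase), HYCC2, SGPP2 (a sphingosine phosphate phosphatase) and AS3MT (an arsenic methyltransferase), at 6.82 to 7.49. APOA1, a liver and gut apolipoprotein, was at 5.50 ± 0.97. Sizes for PHGR1, EPCAM, PIGR and IGKC rest on few counts in the single-compound libraries. With all counts, tested intestinal epithelial markers, PHGR1, EPCAM and PIGR among them, were at 5.15 to 6.77. Plasma cell markers, IGKC among them, reached 6.65 at most.

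Sums of marker lists follow, and the lists hold some of these same genes, so they are not separate support. EPCAM, PIGR and PHGR1 are in the intestinal list and IGKC is in the plasma cell list. The endoderm and liver list holds EPCAM and APOA1. The 13 intestinal epithelial markers, a list made after the values were seen, summed to 83 to 96 counts with both, 5 to 9 with sacubitrilat, 5 to 12 with endothelin-1 and 28 to 117 with vehicle, and each had a count in at least 1 library. The 7 plasma cell markers, chosen likewise, summed to 28 to 33 with both, 1 to 6 with sacubitrilat, 1 to 3 with endothelin-1 and 17 to 38 with vehicle, with TNFRSF17 at 0 in all 12 libraries. For the 8 endoderm and liver markers the sums were 39 to 45 with both, 3 to 5 with sacubitrilat, 2 to 7 with endothelin-1 and 18 to 55 with vehicle. The 2 members tested, EPCAM and APOA1, were both higher. As with ZNF69, a gene that passes the filter only through libraries given both or vehicle has to differ in this direction. The 8 endothelial markers summed to 0 to 7 in any library, with CDH5, VWF and ERG at 0 throughout, the 9 epicardial markers to 263 to 644 with both, 647 to 693 with sacubitrilat, 481 to 540 with endothelin-1 and 343 to 565 with vehicle, and the 6 pluripotency markers found in the table to 0 to 2, with POU5F1 and L1TD1 at 0. Within vehicle, the intestinal sum was highest, at 117, in the shallowest library and lowest, at 28, in the deepest. The origin of these transcripts and their part in the higher calls were not tested.

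**Figure D5:**
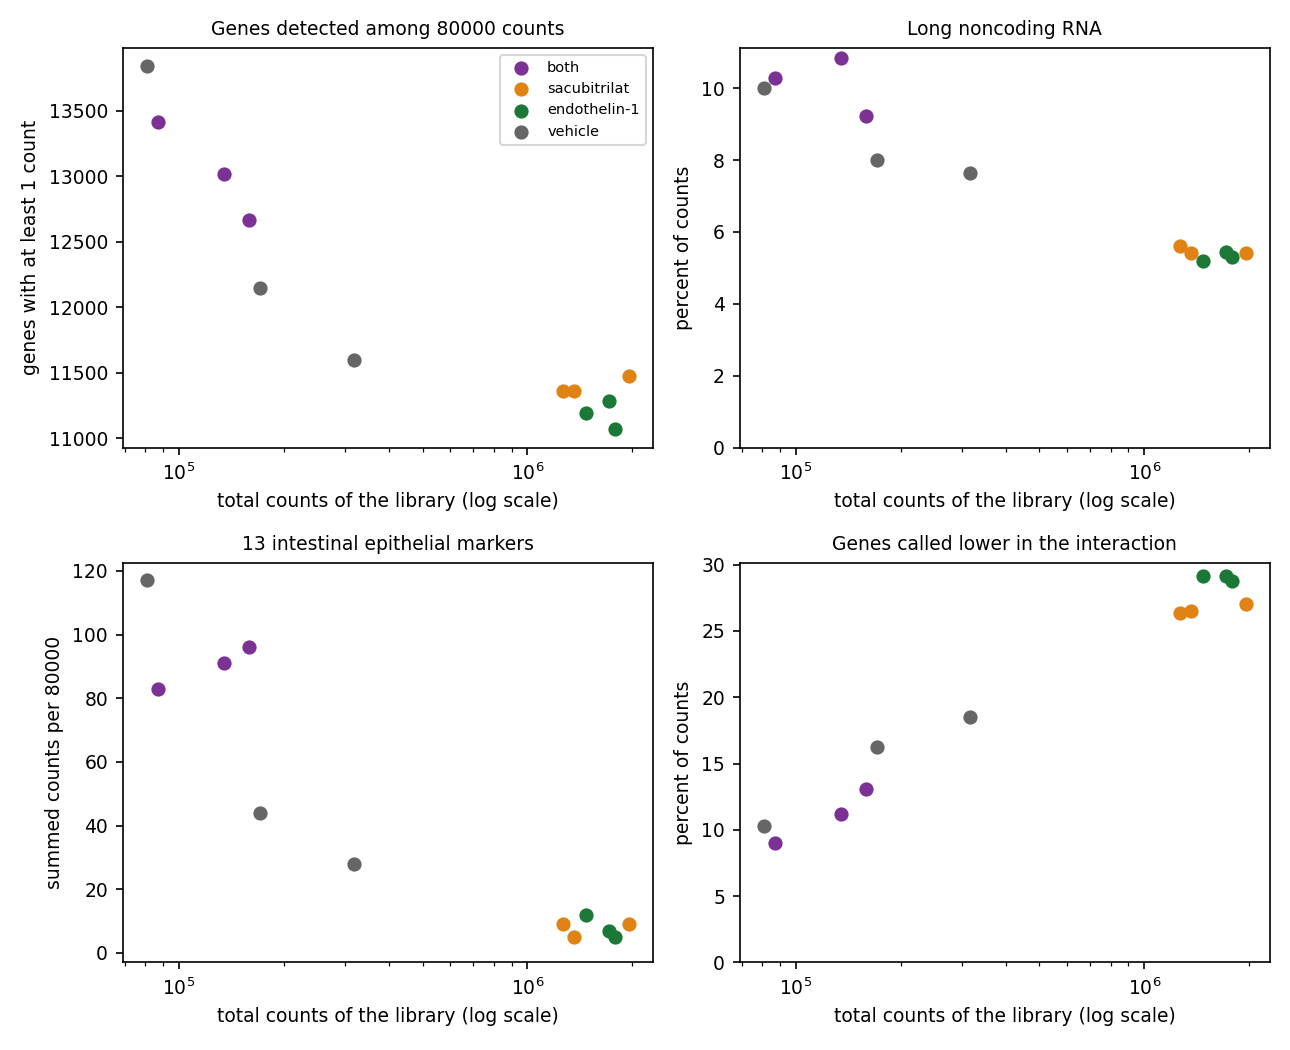
Each point is a library, coloured by group and placed by its total count (log scale), against genes detected among 80000 counts, the percent of counts in long noncoding RNA, the summed counts of 13 intestinal epithelial markers and the percent of counts in genes called lower. The 6 libraries given both compounds or vehicle, at 80844 to 316932 counts, spread along each measure, and the 6 single-compound libraries cluster at the right, with 5 to 12 intestinal marker counts.

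Transcript length and base composition were compared as features that the contrast did not use. The longest annotated transcript had a median length of 3390 bases for higher genes, 3617 for lower genes and 3489.5 for genes not called, and a median GC content of 53.04%, 48.8% and 49.5%, with 95.2% of higher genes, all lower genes and 98.6% of the others matched by ID to GENCODE v29 on GRCh38. These are descriptions of the gene sets, with no test.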

How the data were processed

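The sources were 12 libraries of 3′-end RNA counts. Per the labels' protocols, polyadenylated RNA was primed with a barcoded oligo-dT carrying a molecular identifier, and libraries were stranded and single-end. Per the submitters' processing notes, fastp 0.24.0 trimmed the reads and featureCounts counted them per gene, against GRCh38. Not given in the sources used here: the aligner, annotation release, strand setting and use of the identifiers. The authors deposited estimated counts, 21.1% of them not whole, and CPM, which equal each count scaled to its library's total (largest difference 1.46e-11). Of 78986 features, 92 spike-ins had 0 counts and were left out.

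Counts were rounded and thinned without replacement to 80000 per library (1 seeded draw). The 12 libraries entered 1 model with group as its term (edgeR 4.0.16 quasi-likelihood test, TMM, filterByExpr, R 4.3.3), and p was adjusted by Benjamini-Hochberg over all genes tested, with a threshold of 0.05. The same fit was made on all counts. Errors beside log2 values are standard errors. They rest on 1 spread per gene shared by all groups, though spread could differ between groups. For NPPA the CPM SD was 326 on a mean of 560 with vehicle and 289 on 837 with both. It was 67.6 on 1644 with sacubitrilat and 173 on 3836 with endothelin-1. Each titled replicate is a separate culture, per the labels. Groups follow the titles. A floor of 3 counts covers counting error only; it is 18.9 to 34.4 CPM with both compounds, 1.54 to 2.37 with sacubitrilat, 1.68 to 2.04 with endothelin-1 and 9.47 to 37.1 with vehicle.

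Gene lists (49) and the naming rule were chosen with earlier results of these data known, and no list was tested. Named genes were a panel of 29 cardiac genes (21 tested at matched depth, 3 higher and 13 lower), the 12 largest interactions in each direction called in both fits, and up to 3 called members per list by p. Genes named in text beyond that rule complete a count of a list and were named after their values were seen; single-gene alternatives were run for 79 named genes (74 called), not for those. The intestinal and plasma cell lists were made after the data were seen.

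Alternatives were RLE scaling, totals alone, no filter, mean counts of at least 20 (50 with all counts), DESeq2 1.42.0, limma-voom 3.58.1 with and without quality weights, a replicate block, each library left out, the 2 libraries under 100000 counts left out, mitochondrially encoded genes left out, 10 other draws, 40000 counts, and the log2 total as a covariate. On simulated counts, 2-, 4- and 8-fold interactions were recovered in 30.0%, 71.9% and 95.1% at matched depth (1639 genes; 4.10% of 122 calls false) and 65.7%, 97.0% and 98.5% with all counts (10165 genes; 5.95% of 185 calls false). The simulation gave all groups 1 shared profile, changed a set of genes in the both group alone and held no shift tied to library total. Its share of false calls therefore does not carry over to the data, where the contrast follows the totals. Figures used matplotlib 3.10.9 in Python 3.11.15.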

Additional observations from a re-analysis of the deposited data

Results flagged for a closer look

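The interaction itself tests whether the endothelin-1 effect differs between cells with and without sacubitrilat, and the results that passed are listed here. It called 950 genes at matched depth and 5163 with all counts (edgeR). Of the cardiac panel, the endothelin-1 effect was lower with sacubitrilat than without it for NPPB (-6.00), CCN2 (-5.62), ACTC1 (-4.91), CDKN1A (-4.70), PLN (-4.62), EDNRA (-3.79), NPPA (-3.23), ACTA2 (-3.23), ANKRD1 (-2.53), CRYAB (-2.44), COL1A1 (-2.00), COL3A1 (-1.61) and MYL7 (-1.17), all log2 values at matched depth. It was higher for TNNI1 (1.67), TNNT2 (1.83) and TGFB1 (3.61). The sides of the contrast differ in library total, and with the log2 total as a covariate none of these 16 genes passed in its own direction; COL3A1 passed in the opposite direction, at 4.12 (adjusted p from edgeR = 0.0279). Each library was left out in turn, with the results given below. Groups of 3 libraries were too small for a test that names a library as outlying.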

How the results depend on the processing

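At matched depth the count of calls was 917 to 1005 under RLE scaling, totals alone, limma-voom with and without weights, 10 other thinnings and the omission at 80000 counts of the 2 libraries under 100000, with 811 in DESeq2 and 910 without mitochondrially encoded genes. It was 953 to 1150 with each library left out. A replicate block gave 911 calls at matched depth and 4923 with all counts, and it ended no call among the 74 called genes followed singly. Same-numbered libraries deviated with r from -0.388 to 0.0707 over 18 pairs, against -0.233 to 0.413 over 36 other pairs. The highest r was between vehicle replicate 2 and replicate 1 of both compounds, the shallowest library of each group. Library total may enter this check, so it cannot show whether the numbers mark a pairing. Other filters and depths gave 1550 of 27245 with no filter (968 higher, 582 lower), 268 of 448 at a mean of at least 20, 420 of 758 at 40000 counts and 1550 of 3457 at 130000 without those 2 libraries. With all counts the range was 3718 to 6084 with each library left out, and 1587 of 2969 were called at a mean of at least 50; without a filter 6569 were called, 29.6% of them higher, against 43.7% with it, and quality weights gave 51.7%. The log2 total as a covariate left 26 calls at matched depth and 25 with all counts. Of the 74 called genes followed under each alternative, 1 (H19, 7.67) kept its call with that covariate, 38 lost it in the same direction and 35 changed sign. Interactions that changed sign, with ACTA1 and ATP2A2 among them though not called before, were NYNRIN 3.62, ACTC1 2.83, NREP 2.91, SLC8A1 0.034, DKK3 1.70, PLN 4.72, GATA6 1.84, MALAT1 0.82, COL6A1 0.26, EDNRA 1.55, VCAN 1.05, NEXN 3.60, RGS5 2.69, NEBL 0.63, NPPA 2.33, ACTA2 1.15, CNN1 3.70, GUCY1A1 2.46, ANKRD1 2.18, MYOCD 2.67, HSPB1 0.92, COL1A1 2.85, ACTA1 6.67, COL3A1 4.12, MT-RNR2 3.64, MYL7 1.43, ATP2A2 -5.52, TNNT2 -0.72, MYL3 -3.77, MYL9 -0.80, CTSD -1.50, TNNC1 -0.90, MRPL28 -5.91, RPL41 -0.21, MYL4 -2.14, NDUFV1 -3.10 and RPL7L1 -1.43. In that opposite direction COL3A1, ATP2A2 and MRPL28 passed the threshold. The cause was not tested, and the covariate rests on the spread of totals within groups, since totals of the 2 sides do not overlap. TNNI3, not called, was above 0 in 9 other thinnings (0.89, 1.01, 0.69, 0.22, 0.055, 0.99, 0.089, 0.23 and 1.26), at 0.10 without the 2 shallow libraries at 130000 counts, and between -0.59 and 0.29 with 1 library left out. Under the other alternatives (not the covariate, the omission of single libraries or other thinnings) none of those 74 genes lost its call or sign where it was tested. Below 10 to 20 counts per library, values rest on few reads.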
